A study of Mus musculus with 6 samples.

Results

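A set of 10 genes of the endoplasmic reticulum (ER) folding machinery were followed in mouse liver after a short change of diet. They are Hspa5, Hsp90b1, Hyou1, Creld2, Manf, Sdf2l1, Dnajb9, Dnajc3, Calr and Canx, chosen by name as chaperones and co-chaperones of the ER lumen and its membrane and as known targets of the transcription factors ATF6 and XBP1. All 10 were found among the 20673 genes of the deposited tables, each under 1 gene identifier. Liver RNA of C57BL/6J mice was sequenced after 3 days on a regular diet (RD, a standard chow, 3 livers) or on a high-cholesterol diet (HCD, 3 livers) without any surgery or infection, and both diets were given freely. The HCD also holds cocoa butter and sodium cholate, which RD does not list, so cholesterol, fat and cholate cannot be told apart. Food intake was modestly lower with HCD in the study, and this cannot be told apart from them either. The study used male and female mice of about 3 months, and the sex of each liver, its time of collection and any fast before it are not given in the sources used here.

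Secretory cells such as hepatocytes, which release most plasma proteins, fold their products inside the ER. When unfolded protein accumulates there, the membrane sensors ATF6 and IRE1 (gene Ern1) release or produce active transcription factors, the cleaved ATF6 and the spliced XBP1, and the sensor PERK (gene Eif2ak3) slows translation. This unfolded protein response raises the transcription of chaperone genes, and ATF6 acts with the CCAAT-binding factor NF-Y at a composite promoter motif called the ER stress response element (ERSE). Bulk liver RNA gives the total mRNA of all cells, and fewer cells of a type and less RNA per cell cannot be told apart in it.

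The promoter letters of these genes are shown for the ERSE, the motif through which ATF6 is known to act. RefSeq windows on GRCm38.p6, from 250 bases before to 50 bases after an annotated transcription start, matched 8 of the 10 genes by symbol. Hyou1 and Manf had no entry in this set, which matched 9776 of the 13105 genes tested below. The ERSE was searched on both strands as CCAAT and CCACG with 9 bases of any kind between them. In the 180 bases before the Hspa5 start (chr2:34771910-34772089, plus strand), capitals mark the ERSE and, further upstream, the core letters of the unfolded protein response element (UPRE), TGACGTG. This RefSeq start differs from that of the Hspa5 span given below, which begins at 34771970. Most of the bases shown, with the ERSE, therefore lie inside that span.
Hspa5: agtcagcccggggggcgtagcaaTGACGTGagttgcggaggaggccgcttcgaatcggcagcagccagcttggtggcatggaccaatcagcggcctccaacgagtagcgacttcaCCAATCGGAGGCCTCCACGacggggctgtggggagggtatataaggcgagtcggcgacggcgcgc

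The exact ERSE stood in the windows of 6 of the 8 genes and in 39 of all 32851 windows (0.119%). It is set in capitals below with 12 bases on each side, 5′ to 3′ in the direction of the gene. The Hsp90b1 window held it once in each orientation, and the Calr and Creld2 windows held it reversed, from CGTGG to ATTGG.
Hsp90b1 at -212 to -194 (chr10:86705626-86705668, minus strand): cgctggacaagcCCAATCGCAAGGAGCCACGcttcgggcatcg
Hsp90b1 at -107 to -89 (chr10:86705521-86705563, minus strand): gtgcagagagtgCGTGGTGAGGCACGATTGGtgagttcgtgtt
Calr at -162 to -144 (chr8:84847063-84847105, minus strand): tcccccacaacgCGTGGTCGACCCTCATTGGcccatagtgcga
Canx at -145 to -127 (chr11:50325788-50325830, minus strand): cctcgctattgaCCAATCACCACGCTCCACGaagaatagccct
Creld2 at -126 to -108 (chr15:88819508-88819550, plus strand): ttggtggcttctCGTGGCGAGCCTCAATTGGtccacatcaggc
Dnajc3 at -105 to -87 (chr14:118937815-118937857, plus strand): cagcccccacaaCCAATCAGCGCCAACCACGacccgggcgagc

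In Hspa5 the ERSE lay at -65 to -47 and the UPRE core at -157 to -151. TGACGTG was in 661 of all windows (2.01%) and in none of the other 7 windows of this group. The shorter ERSE-II motif, ATTGG and CCACG with 1 base between them, was in 12 windows (0.0365%) and in none of the 8. A CCAAT box, the part of the ERSE that NF-Y binds, was in all 8 windows and in 37.4% of all windows. The windows of Dnajb9 and Sdf2l1 held CCAAT without an exact ERSE. These matches are letters within a fixed window and say nothing of binding in these livers. The genes were chosen as known targets of ATF6 and XBP1, so their share with an ERSE is not independent of that choice.

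**Figure D1:**
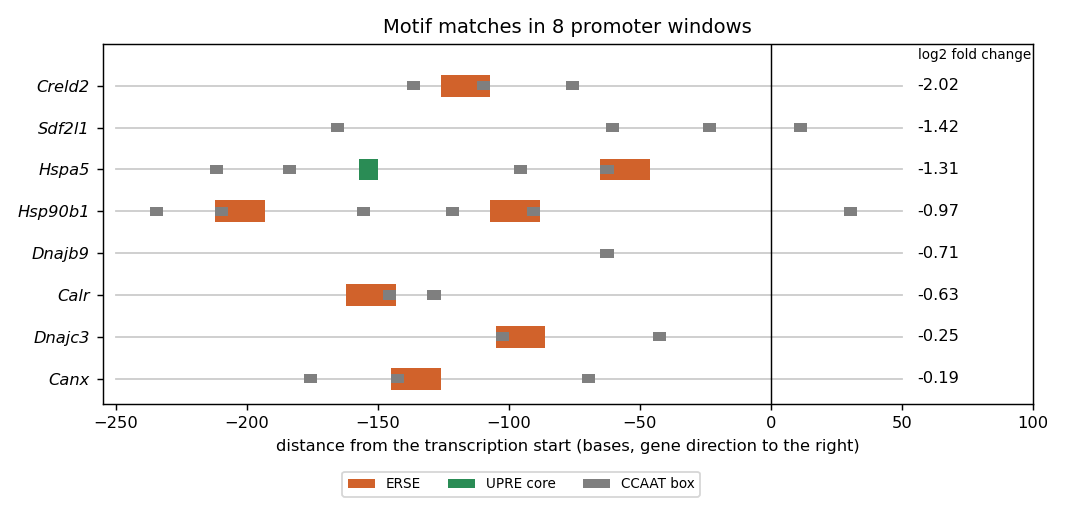
Positions of exact motif matches on either strand in 8 RefSeq promoter windows, with the distance from the transcription start in bases on the x axis, 1 gene per row and the log2 fold change of HCD over RD at the right. Orange boxes are ERSE, the green box is the UPRE core and grey boxes are CCAAT boxes, which also form part of each ERSE. An ERSE stands in front of Creld2 (-2.02) as well as in front of Dnajc3 (-0.25) and Canx (-0.19).

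The deposited read counts totalled 13771630 to 23129576 per liver with RD and 13935491 to 18545549 with HCD. The counts of the 10 genes ran from 269 (Sdf2l1 in HCD replicate 1) to 40326 (Hspa5 in RD replicate 1). Counting error was small beside the spread between livers, except for Canx with RD (coefficient of variation 0.297%). Levels are given as CPM, counts scaled to a common library size with TMM factors, and the test was edgeR's quasi-likelihood test of HCD against RD and its p-values were adjusted (Benjamini-Hochberg) across the 13105 genes left by the filter on low counts. Genes with an adjusted p under 0.05 are referred to as called, and replicates are given in the order 1, 2, 3 within each diet. HCD replicate 1 stood apart from the other livers in sex-linked RNA, with 5032 Xist counts against 0 elsewhere and 0 counts of 4 Y-linked genes against 1075 to 2666 elsewhere. This is the pattern of a female liver, and the other livers, with all 3 RD livers among them, had that of male livers. Each call on the 10 genes is therefore also given without HCD replicate 1. The slope of log2 level against log2 gene length, relative to the mean of the 6 livers, was 0.041 to 0.064 with RD and -0.088 to -0.013 with HCD, so a length trend moved with diet. All 10 hepatocyte markers were present in every liver, with a median log2 fold change of 0.15, none called by edgeR, and 2 higher and none lower at a nominal p (before adjustment) up to 0.05 and by DESeq2.

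All 10 ER chaperone genes had a log2 fold change below 0 with HCD, and 4 of them were called lower: Creld2, Hyou1, Hspa5 and Hsp90b1. None was called higher by edgeR or DESeq2, and none had a higher level with HCD at a nominal p up to 0.05. Among all genes tested, edgeR called 1.32% lower and 1.95% higher. At a nominal p up to 0.05, 8 of the 10 were lower, against 9.81% of all genes. In 7 of the 10 all HCD livers lay below all RD livers, as they did for 13.7% of all genes. DESeq2 called 6 of the 10 lower and 3.68% of all genes. The median log2 fold change was -1.10 over the 10 genes and 0.0074 over all genes. Hspa5, Hsp90b1 and Hyou1 are also named by the study from these same samples, so their direction here is not independent evidence. The number called was 3 without HCD replicate 1, 5 without HCD replicate 2, 2 without RD replicate 3, and 0 without RD replicate 1, RD replicate 2 or HCD replicate 3, while the median stayed between -1.26 and -0.93.

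**Figure D2:**
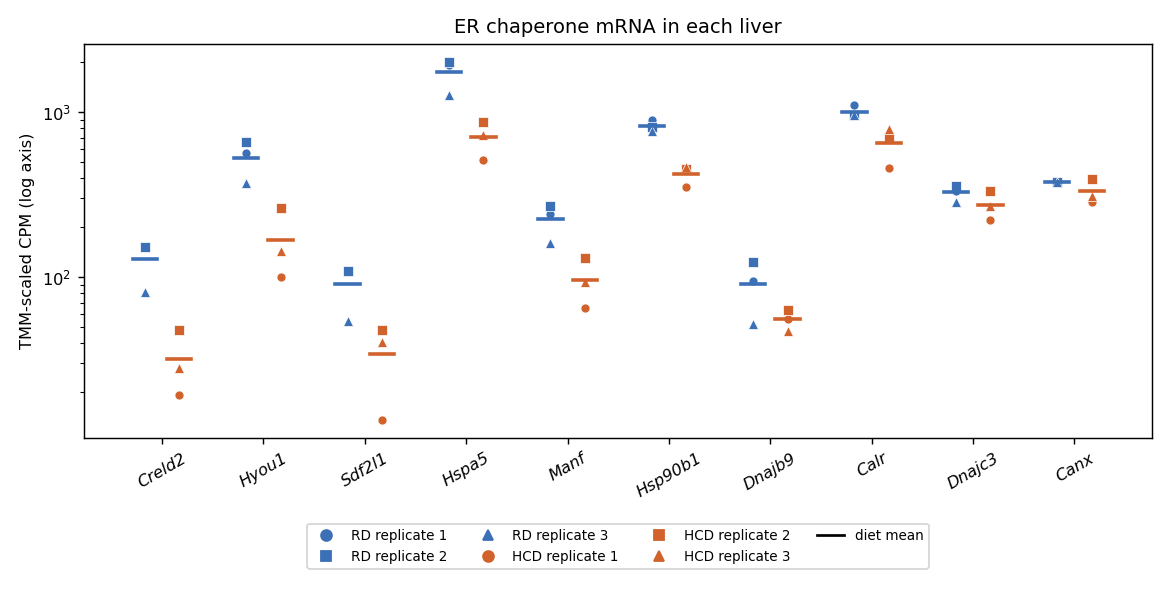
TMM-scaled CPM of the 10 genes in each liver on a log axis, with RD livers in blue, HCD livers in orange, replicates by symbol shape and diet means as bars. For 7 genes every HCD point lies below every RD point, and for Dnajb9, Dnajc3 and Canx the diets overlap.

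The HSP70 system is built around Hspa5. Hspa5 (ENSMUSG00000026864, chromosome 2 from 34771970 to 34777547 of GRCm38) encodes BiP, the HSP70 of the ER lumen, which binds unfolded chains and also holds the stress sensors inactive. Its level was 1938, 2014 and 1272 CPM with RD, and 512, 866 and 730.1 CPM with HCD. The lowest RD liver was 1.47 times the highest HCD liver. Hspa5 fell from 1741 ± 409 CPM (SD, n = 3) to 703 ± 178, a log2 fold change of -1.31 (standard error 0.26, 95% interval -1.89 to -0.73, adjusted p = 0.0354 from edgeR). Of 126 genes whose mean reached 1000 CPM, Hspa5 and Hspa8, the constitutive cytosolic HSP70, were the 2 that edgeR called lower, a count made after the values were seen, and DESeq2 called 7 of the 126 lower. Hspa5 stayed called without RD replicate 3 or HCD replicates 1 or 2 (adjusted p = 0.0434 to 0.0491). It was not called without RD replicate 1, RD replicate 2 or HCD replicate 3 (adjusted p = 0.145, 0.148 and 0.101), nor after a trend with gene length was removed (adjusted p = 0.0504).

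Hyou1 (ENSMUSG00000032115, chromosome 9 from 44379490 to 44392369) encodes a large HSP70-like protein that exchanges the nucleotide of BiP. It stood at 562, 655 and 373 CPM with RD and at 101, 261 and 144 CPM with HCD. The diets did not overlap, and HCD replicate 1 was again the lowest liver. Hyou1 fell from 529.8 ± 144 to 169 ± 83.2 CPM (SD, n = 3), a log2 fold change of -1.65 (standard error 0.36, 95% interval -2.46 to -0.84, adjusted p = 0.0463). The call was kept without HCD replicate 2 (adjusted p = 0.0272) and was lost without any other liver. Its adjusted p was 0.158, 0.179 or 0.0642 when RD replicate 1, 2 or 3 was left out, and 0.0655 or 0.138 when HCD replicate 1 or 3 was. It was also lost with limma on log2 of FPKM plus 0.1 (adjusted p = 0.0543) and after removal of the length trend (adjusted p = 0.0708).

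Sdf2l1, a small luminal partner of BiP and its J proteins, had the largest standard error of the group. Sdf2l1 (ENSMUSG00000022769, chromosome 16 from 17130138 to 17132383) was at 108, 109.5 and 54.5 CPM with RD and 13.6, 47.9 and 40.7 CPM with HCD. The diets did not overlap, although the lowest RD liver was only 1.14 times the highest HCD liver. The log2 fold change of Sdf2l1 was -1.42 (standard error 0.44, 95% interval -2.43 to -0.41), short of the threshold (adjusted p = 0.122). Without HCD replicate 1 it was -1.03. It was past the threshold only when no genes were filtered for low counts (adjusted p = 0.0373), out of all alternatives tried.

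The J proteins of BiP, which pass it its clients and start its cycle, had smaller fold changes and overlapping diets. Dnajb9, a soluble J protein induced by XBP1 that also returns BiP to the sensor IRE1, was at 95.3, 124 and 52.1 CPM with RD and 55.8, 63.1 and 47.3 CPM with HCD. RD replicate 3 lay within the HCD values. Its log2 fold change was -0.71 (standard error 0.28, 95% interval -1.35 to -0.062, adjusted p = 0.201). Dnajb9 (ENSMUSG00000014905, chromosome 12 from 44205559 to 44210326) ranged from -0.99 without RD replicate 3 to -0.42 without RD replicate 2, and no alternative brought it past the threshold. Dnajb9 shares 697 bases at 93.1% identity with the pseudogene Gm6568, which was not analysed here. Dnajc3, a luminal J protein first described as an inhibitor of the kinase PKR, was at 333, 358 and 285 CPM with RD and 221, 331 and 268 CPM with HCD. The diets overlapped, and the log2 fold change of Dnajc3 (ENSMUSG00000022136, chromosome 14 from 118937976 to 118981697) was -0.25 (standard error 0.18, 95% interval -0.67 to 0.17, adjusted p = 0.469). That interval leaves out a fall as large as the Hspa5 estimate of -1.31. The Dnajc3 estimate was -0.12 or -0.42 when HCD replicate 1 or 2 was left out and between -0.34 and -0.18 without any other liver.

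Hsp90b1 encodes the HSP90 of the ER, which finishes the folding of selected clients such as integrins and Toll-like receptors. Hsp90b1 (ENSMUSG00000020048, chromosome 10 from 86690209 to 86705509) was at 896, 818 and 769.9 CPM with RD and 350.3, 449 and 464 CPM with HCD. The diets were clearly apart and each was tight, with a coefficient of variation of 7.67% with RD and 14.7% with HCD. Hsp90b1 fell from 828 ± 63.5 to 421 ± 61.7 CPM (SD, n = 3), a log2 fold change of -0.97 (standard error 0.17, 95% interval -1.36 to -0.59, adjusted p = 0.0258). It stayed called without HCD replicate 1 or 2 (adjusted p = 0.0320 and 0.0449). It was not called without RD replicates 1, 2 or 3 (adjusted p = 0.130, 0.119 and 0.0568) or without HCD replicate 3 (adjusted p = 0.0615). Exons of Hsp90b1 overlap those of 1810014B01Rik and Gm15344, and these had at most 51 and 45 counts in a liver.

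Calreticulin and calnexin are the lectin chaperones that hold newly made glycoproteins until their sugars are trimmed. Calr, the soluble form (ENSMUSG00000003814, chromosome 8 from 84841850 to 84846934), was at 1098, 959.6 and 958 CPM with RD and 457, 697 and 787 CPM with HCD. The diets did not overlap, and HCD replicate 1 was far below the other HCD livers. The log2 fold change of Calr was -0.63 (standard error 0.22, 95% interval -1.13 to -0.14), not past the threshold in edgeR (adjusted p = 0.148) and past it in DESeq2 (adjusted p = 0.0314). Over the other alternatives the adjusted p of Calr lay between 0.0812 and 0.381. Calr shares 495 bases at 92.5% identity with the pseudogene Calr-ps, which was not analysed here. Canx, the membrane-bound form (ENSMUSG00000020368, chromosome 11 from 50293961 to 50325673), was at 376, 378 and 376 CPM with RD, the tightest values of the 10 genes. With HCD it was at 286, 395 and 309.9 CPM, so the highest liver of all 6 was an HCD liver. The log2 fold change of Canx was -0.19 (standard error 0.16, 95% interval -0.56 to 0.18, adjusted p = 0.536). Leaving out HCD replicate 1 gave -0.096 and leaving out HCD replicate 2 gave -0.35, and no liver left out brought it past the threshold.

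Creld2 and Manf are small ER stress proteins that are retained in the ER and can be secreted. Creld2, a disulfide isomerase-like protein (ENSMUSG00000023272, chromosome 15 from 88819646 to 88826683), had the largest fall of the 10. It was at 153, 153 and 80.9 CPM with RD and 19.3, 48.0 and 28.0 CPM with HCD. The lowest RD liver was 1.69 times the highest HCD liver. Creld2 fell from 129 ± 41.4 to 31.7 ± 14.7 CPM (SD, n = 3), a log2 fold change of -2.02 (standard error 0.36, 95% interval -2.84 to -1.20, adjusted p = 0.0282), and 76 of the 13105 genes tested had a lower one. It stayed called without RD replicate 3 or HCD replicates 1 or 2 (adjusted p = 0.0337, 0.0442 and 0.0257), and it was not called without RD replicates 1 or 2 or HCD replicate 3 (adjusted p = 0.117, 0.122 and 0.101).

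Manf, a neurotrophic factor by name that binds BiP, was at 240.3, 269.7 and 160.3 CPM with RD and 65.2, 130.01 and 93.3 CPM with HCD. The diets did not overlap, with the lowest RD liver 1.23 times the highest HCD liver. Manf (ENSMUSG00000032575, chromosome 9 from 106838312 to 106891979) had a log2 fold change of -1.22 (standard error 0.28, 95% interval -1.85 to -0.58) and lay just outside the threshold (adjusted p = 0.0552). It was past it in DESeq2 (adjusted p = 0.000222), with library sizes alone (0.0499), without a filter on low counts (0.0111) and without HCD replicate 2 (0.0426). Leaving out RD replicate 1, 2 or 3 gave an adjusted p of 0.184, 0.213 or 0.0621, and leaving out HCD replicate 1 or 3 gave 0.0827 or 0.145. Exons of Manf overlap 146 bases of Dcaf1 on the opposite strand and 14 bases of Rbm15b on the same strand, with at most 638 and 511 counts in a liver.

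**Figure D3:**
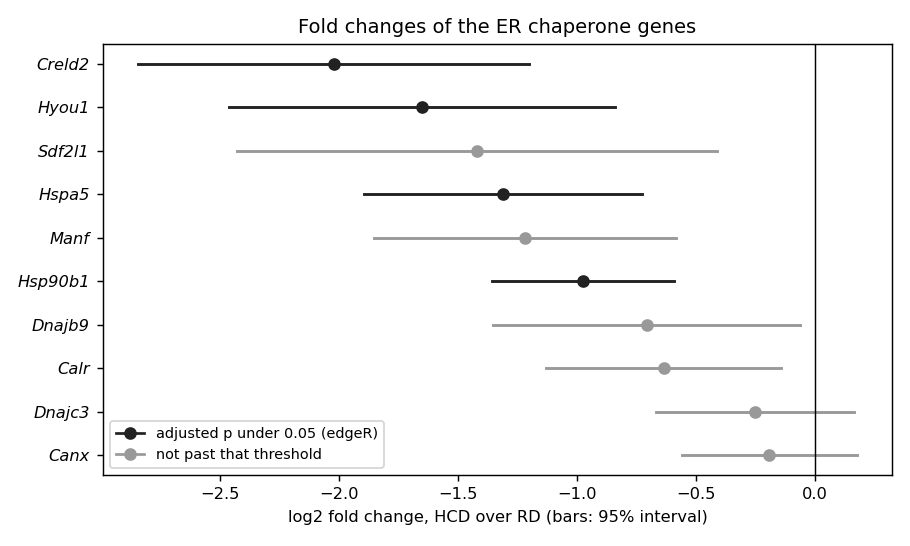
Log2 fold change of HCD over RD for the 10 genes, with points as edgeR estimates, bars as 95% intervals, black for an adjusted p under 0.05 and grey otherwise. The estimates run from -2.02 for Creld2 to -0.19 for Canx, and the intervals of Dnajc3 and Canx cross 0.

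The order of the livers within a diet was compared over the 10 genes. RD replicate 3 was the lowest RD liver for all 10, as it was for 36.8% of all genes tested. For Canx (376.04 against 376.20 CPM) and Calr (957.6 against 959.6 CPM) it was nearly level with the next RD liver. HCD replicate 1 was the lowest HCD liver for 9 and HCD replicate 2 the highest for 8, against 33.2% and 31.9% of all genes tested. The mean log2 deviation of the 10 genes from the mean of the 6 livers was 0.68, 0.74 and 0.16 with RD, and -0.97, -0.13 and -0.48 with HCD. Together the 10 genes took 0.599%, 0.608% and 0.436% of all counts in the RD livers, and 0.222%, 0.322% and 0.258% in the HCD livers. Hspa5 alone made up 29.0% to 34.5% of the counts of the 10 genes with RD and 24.6% to 26.3% with HCD.

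Per length of gene, in FPKM, the order of levels with RD was Hspa5 (599.7 ± 130.4, SD, n = 3), Calr (510 ± 39.9) and Hsp90b1 (299.8 ± 20.4), then Creld2 (137 ± 42.0), Sdf2l1 (119 ± 39.5), Canx (117 ± 2.20), Hyou1 (107 ± 27.0), Dnajc3 (92.4 ± 8.58), Manf (92.3 ± 21.7) and Dnajb9 (51.6 ± 19.8). Hspa5 and Calr, and the neighbours from Creld2 down to Manf, differed by no more than the larger of their SDs. Calr, Hsp90b1 and Creld2 were further apart than that, as were Manf and Dnajb9. With HCD the order began with Calr (333 ± 86.4) ahead of Hspa5 (246 ± 57.9) and Hsp90b1 (155 ± 21.4), and Canx (104 ± 15.6) and Dnajc3 (78.8 ± 14.1) came next. Calr stood above Hspa5 in all 3 HCD livers and in 1 of the 3 RD livers. Creld2 stood at 34.3 ± 15.1 FPKM with HCD, near Hyou1 (34.4 ± 16.1) and Dnajb9 (32.2 ± 4.07).

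Ratios of 2 genes within a liver do not depend on how libraries are scaled, and 7 pairs of partner genes were compared after their values were seen. With 3 livers against 3 the exact two-sided permutation test cannot give a p under 0.1, which is 0.233 after adjustment over the 7 pairs. The FPKM ratio of Hspa5 to its J protein Dnajc3 was 7.07, 6.84 and 5.42 in the RD livers and 2.81, 3.18 and 3.31 in the HCD livers, with no overlap (exact p = 0.1). The ratio of Hspa5 to Dnajb9 was 12.3, 9.79 and 14.7 with RD and 5.54, 8.27 and 9.31 with HCD, also without overlap (exact p = 0.1). The ratio of Creld2 to Manf went from 1.64, 1.46 and 1.30 to 0.764, 0.952 and 0.773 (exact p = 0.1). The diets overlapped for Hspa5 to Hsp90b1 (exact p = 0.2), Hyou1 to Hspa5 (exact p = 0.3), Sdf2l1 to Hspa5 (exact p = 0.8) and Calr to Canx (exact p = 0.2). The Calr to Canx ratio was 4.76, 4.14 and 4.15 with RD and 2.61, 2.88 and 4.14 with HCD.

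Of the sensors and factors upstream of these genes, none of 10 was called by edgeR, while 4 were lower at a nominal p up to 0.05 and DESeq2 called 4 lower. These were Creb3l2, Ern1, Atf6 and Xbp1 (DESeq2 adjusted p = 0.00133, 0.00171, 0.0316 and 0.0289). The study also names Ern1, Atf6 and Xbp1 as lower from these same samples, so their direction is not independent evidence. The median log2 fold change over the 10 sensors and factors was -0.39. Creb3l2, an ER-anchored factor related to ATF6 that was named after its values were seen, was at 45.8 ± 9.83 and 22.6 ± 5.58 CPM without overlap (log2 fold change -1.02, edgeR adjusted p = 0.0520). Ern1, the IRE1 sensor that splices Xbp1 mRNA, was at 92.8 ± 12.7 CPM with RD and 50.6 ± 12.8 with HCD (SD, n = 3), a log2 fold change of -0.87 (adjusted p = 0.0526). Atf6, the other membrane sensor, was at 80.5 ± 5.71 and 54.9 ± 9.54 CPM, a log2 fold change of -0.55 (adjusted p = 0.0900), and for both genes the diets did not overlap. Xbp1 was at 526, 472 and 277 CPM with RD and 179.9, 333 and 185 CPM with HCD, a log2 fold change of -0.87 with overlapping diets (adjusted p = 0.161). These counts do not separate spliced from unspliced Xbp1 or cleaved from whole ATF6. Eif2ak3, the PERK sensor, was at 18.8 ± 2.72 and 15.1 ± 6.14 CPM (log2 fold change -0.31, adjusted p = 0.591). With single livers left out its log2 fold change lay between -0.59 and -0.032.

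Genes of the PERK branch lay on both sides of 0. Of 21 genes of that branch edgeR called 1, Asns, and the median log2 fold change was 0.072, with 10 genes below 0 and 11 above. DESeq2 called 2 lower and 1 higher, as many as had a nominal p up to 0.05. Asns, asparagine synthetase, was at 3.70, 1.33 and 16.7 CPM with RD and 0.202, 0.207 and 0 CPM with HCD, where a count of 0 allows up to 0.243 CPM (3 counts on the same scale, counting error only). Its call was kept without RD replicate 2 (adjusted p = 0.0486), lost without any other liver (0.0821 to 0.118) and lost with limma on FPKM (0.143 and 0.0616 with a pseudocount of 1 and 0.1). Atf4, the factor translated when PERK is active, was at 99.8 ± 16.0 and 90.2 ± 16.5 CPM (log2 fold change -0.15, adjusted p = 0.688). With single livers left out the Atf4 estimate lay between -0.28 and -0.013. Ddit3, which encodes the stress factor CHOP, was at 6.11 ± 1.17 and 6.04 ± 2.74 CPM (log2 fold change -0.012, adjusted p = 0.988).

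Among 42 other ER folding genes edgeR called 3 lower and 1 higher, and the median log2 fold change was -0.16. DESeq2 called 6 lower and 1 higher, and 11 were lower and 3 higher at a nominal p up to 0.05. The lower ones called by edgeR were protein disulfide isomerases and a relative, Pdia4 (log2 fold change -1.13, adjusted p = 0.0136), Pdia5 (-0.87, adjusted p = 0.0282) and Txndc11 (-0.80, adjusted p = 0.0258). The higher one was Fkbp2, a proline isomerase of the ER (log2 fold change 0.61, adjusted p = 0.0350). The Fkbp2 call was lost when any 1 liver was left out (edgeR adjusted p = 0.0584 to 0.167). It was also lost after removal of the length trend (0.0993). Of 26 genes of ER-associated degradation, which exports misfolded proteins to the proteasome, 2 were called lower and none higher, with 6 lower and none higher at a nominal p up to 0.05, and 3 lower and none higher by DESeq2. They were the ubiquitin ligase Syvn1 and its partner Sel1l, which the study also names as lower from these same samples, as it does Pdia4. Syvn1 fell from 314 ± 77.5 to 96.2 ± 26.8 CPM (SD, n = 3), a log2 fold change of -1.71 (adjusted p = 0.0168), and Sel1l fell from 252 ± 41.2 to 127 ± 17.2 CPM (adjusted p = 0.0258). Of 35 genes of ER translocation and N-glycosylation edgeR called none, with 5 lower and 3 higher at a nominal p up to 0.05 and 1 called lower by DESeq2, and their median was -0.092.

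Chaperones of other compartments were set beside those of the ER. Of 30 cytosolic chaperone genes 7 were called lower and none higher (16 and none at a nominal p up to 0.05, and 10 and none by DESeq2), with a median log2 fold change of -0.34, and several of them are also named by the study from these samples. Hspa8 fell from 1741 ± 333 to 825 ± 91.0 CPM (SD, n = 3), a log2 fold change of -1.08 (adjusted p = 0.0289). The largest falls among the called genes were those of Hspa1b (-3.48, adjusted p = 0.0376), Hsph1 (-1.50, adjusted p = 0.0463) and Hspa8, which are targets of the heat shock factor HSF1 or, for Hspa8, mostly constitutive. Hspa1b has the near-identical copy Hspa1a, so its counts are uncertain. Of 9 mitochondrial chaperone genes edgeR called none and their median was -0.020, with 1 higher at a nominal p up to 0.05, which DESeq2 called. Of 28 genes for secreted liver proteins, the cargo of the hepatocyte ER, edgeR called none, with 3 lower and 5 higher at a nominal p up to 0.05. DESeq2 called 3 of the 28 lower and 4 higher, and the median was -0.0067. Their summed level was 198255 to 234712 CPM with RD and 186034 to 237670 CPM with HCD. Differences between lists were not tested. Of the 13 called genes named here outside the 10 (with Cd68, Mlec and Acacb), edgeR still called 1, 2 and 6 when RD replicate 1, 2 or 3 was left out, and 7, 10 and 2 when HCD replicate 1, 2 or 3 was, with Acacb called each time.

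**Figure D4:**
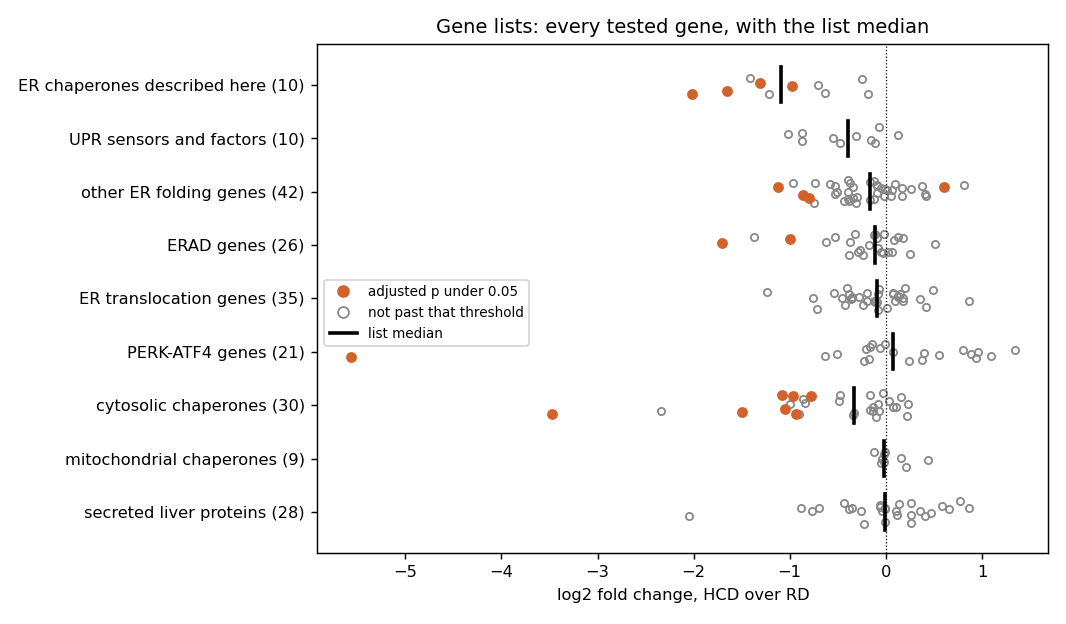
Log2 fold change of HCD over RD for every tested gene of 9 gene groups, 1 point per gene, with orange points past an adjusted p of 0.05 in edgeR and black bars at group medians. The number of genes is in brackets, and vertical scatter within a row carries no value. The median is -1.10 for the 10 ER chaperone genes, -0.39 for the sensors and factors, -0.34 for cytosolic chaperones and near 0 for mitochondrial chaperones and secreted proteins.

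The 5 genes whose deviations over the 6 livers lay nearest the mean pattern of the 10 were Mlec, Fndc3b, Osbp, Chordc1 and Gmppb. They had root mean square distances of 0.117 to 0.159 on the log2 scale, against a median of 0.626 over the 7448 other genes that averaged 10 CPM or more. That mean pattern holds the difference between the diets, so the direction of the 5 genes was fixed by their choice and their values are a description. Of the 10 genes themselves, which make up the mean, Manf (0.112), Hspa5 (0.134), Hsp90b1 (0.209) and Calr (0.297) lay nearest it, and the other 6 lay between 0.371 (Dnajb9) and 0.528 (Creld2). Mlec, which encodes the ER lectin malectin, was at 221 CPM with RD and 102 CPM with HCD on average (log2 fold change -1.12, edgeR adjusted p = 0.0329). The other 4 had log2 fold changes between -1.13 and -0.84 and an edgeR adjusted p of 0.0522 for Fndc3b, 0.0544 for Osbp, 0.0508 for Chordc1 and 0.169 for Gmppb. DESeq2 called Fndc3b, Osbp and Chordc1 and did not call Gmppb.

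Markers of other liver cells were checked beside these results. All 12 Kupffer cell markers had a log2 fold change above 0, with a median of 0.89. Of these edgeR called 1 higher, Cd68 (1.24, adjusted p = 0.0277), while DESeq2 called 4 higher and 6 were higher at a nominal p up to 0.05. Their summed level was 173 to 283 CPM with RD and 241 to 519 CPM with HCD, and none was at 0 in any liver. Sinusoidal endothelial markers summed to 169 to 272 and 206 to 323 CPM, stellate cell markers to 262 to 281 and 279 to 425 CPM, and cholangiocyte markers to 37.6 to 93.2 and 66.1 to 98.6 CPM, with none called by edgeR in these 3 lists, 1 endothelial and 2 stellate genes higher at a nominal p up to 0.05, and 1 endothelial gene called by DESeq2. B and plasma cell markers (198 to 398 and 276 to 346 CPM) and T cell and neutrophil markers (97.8 to 115 and 99.3 to 132 CPM) overlapped between the diets, with none of the 6 and 5 genes tested at a nominal p up to 0.05, none called by DESeq2, and 3 and 5 genes of these lists at 0 in at least 1 liver. Most of the B and plasma cell sum was Sdc1 (173 to 367 and 257 to 308 CPM). Most of the T cell and neutrophil sum was Lcp1 (89.4 to 107 and 81.8 to 120 CPM). Exocrine pancreas markers, of which 3 of 12 are in the tables, summed to 20.2 to 26.9 CPM with RD and 7.53 to 23.6 CPM with HCD. Of 14 clock genes edgeR called none, with 5 lower and 3 higher at a nominal p up to 0.05, and DESeq2 called 2 lower and 3 higher. The part of other cell types, of the clock and of sex in the ER chaperone values was not tested.

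**Figure D5:**
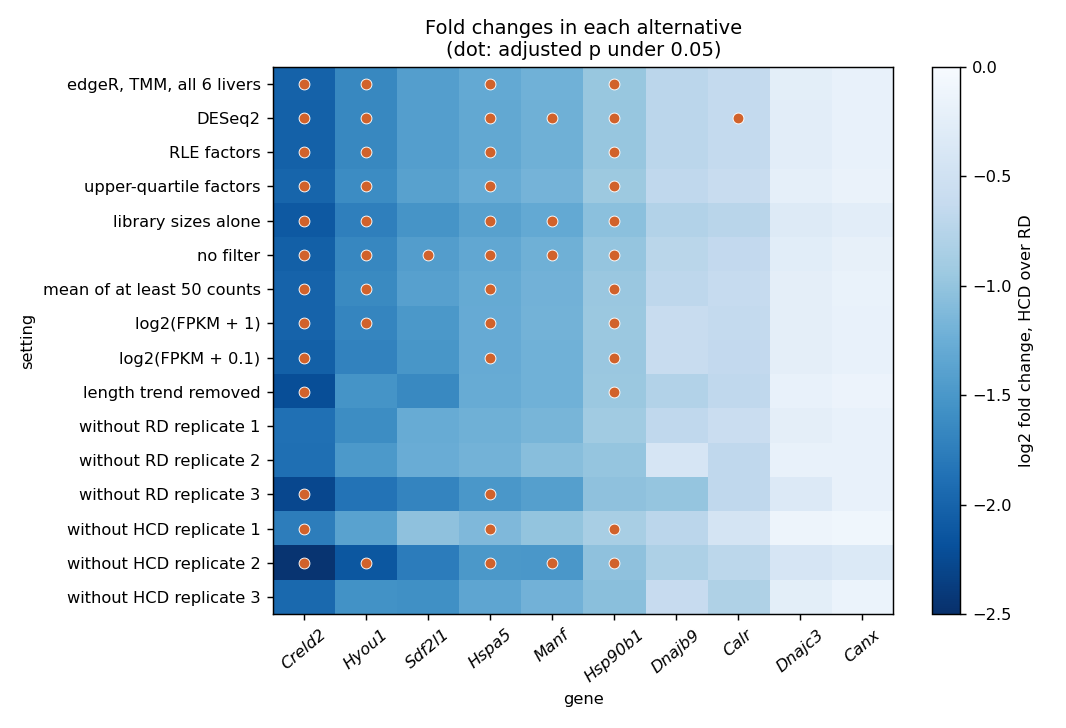
Log2 fold change of HCD over RD for the 10 genes (columns) with all 6 livers and under 15 alternatives (rows, without the fit that blocks on replicate number), in darker blue for lower values, with a dot where the adjusted p was under 0.05. Every cell is below 0, and rows without RD replicate 1, RD replicate 2 or HCD replicate 3 hold no dot.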

How the data were processed

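Total liver RNA (RNeasy Kit) was made into libraries and read by a commercial provider. The authors deposited read counts per gene, and deposited FPKM values whose library total is not stated. The submitters' processing notes name STAR, HTSeq, DESeq2, edgeR and GRCm39, while the lengths that counts and FPKM imply equalled those of GENCODE M21 (GRCm38) within 0.1% for 95.0% to 95.1% of genes, so positions are from M21. The authors' own log2 fold changes and p-values were not used. Strand was not stated.

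Counts were tested with edgeR 4.0.16 in R 4.3.3 (filterByExpr by diet, TMM, quasi-likelihood F test, no covariates). Standard errors were derived from the fold change and F statistic of that fit, and 95% intervals from these with a t quantile. Alternatives were DESeq2 1.42.0, other scaling factors and filters, limma 3.58.1 on log2 FPKM plus 1 or 0.1, removal of a length trend, a replicate block and each liver left out. Log2 deviations used CPM plus 0.5. Scripts were tested on simulated data. Genes that can share reads were sought with minimap2 2.31 (at least 200 bases at 90% identity). Only 1 such gene with counts was found, 1810014B01Rik. Motifs were searched as exact letters. Depth was 13771630 to 23129576 counts per liver.

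Named genes are the 10 chaperones, the 3 largest called falls and rises of each pathway list, the main sensors and factors, and the 5 nearest patterns of at least 10 CPM. The genes, lists, motifs and ratio pairs were chosen with earlier results of these data known.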

Additional observations from a re-analysis of the deposited data

How the results depend on the processing

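The number of the 10 ER chaperone genes called lower was 2 after removal of the length trend, 8 at a nominal p up to 0.05, and 0 at an adjusted p under 0.01, and it lay between 0 and 5 when single livers were left out. With the replicate number as a block (replicate block) it was 1, Creld2, and the calls of all genes went from 173 lower and 255 higher to 65 and 71. Deviations of livers with the same number correlated at -0.076, 0.088 and -0.041, and those with different numbers at -0.107 to 0.133. Whether the numbers pair the livers cannot be decided from these values with 3 livers per diet. The median log2 fold change of the 10 genes stayed between -1.26 and -0.93 over all alternatives, and none of the 10 reversed its sign. Ddit3 had a log2 fold change of 0.026 with upper-quartile factors and 0.0076 with a mean of at least 50 counts, and values from -0.26 to 0.31 with single livers left out. Over all genes, 21 to 141 were called lower and 15 to 200 higher when single livers were left out, and 482 lower and 636 higher with DESeq2. The cause of these differences was not tested. With 3 livers per diet the spread between livers sets the precision for the 10 genes, whose counts were at least 269, while depth also limits genes near 0 such as Asns.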

Other observations

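An exact ERSE stood in the promoter window of 12 tested genes outside the 10 ER chaperone genes. Of these edgeR called 2 lower with HCD, Syvn1 (log2 fold change -1.71, adjusted p = 0.0168) and Acacb (log2 fold change -1.81, adjusted p = 0.00523), which encodes an acetyl-CoA carboxylase and was named after its value was seen. The median log2 fold change of the 12 was -0.49, against -0.0038 over the 9776 tested genes with a window, of which 1.27% were called lower. The UPRE core TGACGTG stood in the window of 311 tested genes outside the 10, of which 2.89% were called lower. The ERSE-II stood in the windows of 9, of which edgeR called none lower and DESeq2 called 1, with 2 lower at a nominal p up to 0.05 and a median log2 fold change of -0.21. A CCAAT box stood in the windows of 4189, of which 1.46% were called lower. These shares are descriptions over few genes, and no test was made of them.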
